A study of Danio rerio with 16 samples.

Results

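The data described here are the ovaries of 6 adult female zebrafish (AB strain, 4 months old) kept for 32 days in water with exemestane (EM), 2 fish at each of 50, 100 and 200 μg/L. They are 6 of the 16 gonads in the series, and they were chosen by their sex and exposure alone, not by any measured value. The question was whether the level of a gene follows the concentration of EM, so 1 straight line on the log2 concentration was fitted per gene, and its slope is the log2 change for each doubling of EM. The 2 control females (0 μg/L) were left out of the line and are given beside it, and the 6 EM-males (2 at each concentration) served to test whether a trend differed between the sexes. The labels call these fish control only. That they were kept with the solvent DMSO, in which EM was given, is inferred from the paper, which also had controls without DMSO. Each library came from the gonad of 1 fish. Each treatment had 1 tank with 3 females and 3 males, so concentration and tank cannot be told apart. P-values for the line rest on the spread between fish of the same tank and on the distance of the groups from the line. Those of comparisons between concentrations as groups rest on the spread between fish of the same tank. Neither measures the spread between tanks of the same concentration.

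EM is a steroid that inactivates aromatase, the enzyme that turns androgens into estrogens. In the fish ovary, follicle cells make estrogen with the aromatase encoded by cyp19a1a, and estrogen in the blood makes the liver produce vitellogenins, the yolk precursors that growing oocytes take up. Zebrafish have no single sex-determining chromosome in laboratory strains, and loss of estrogen can turn an ovary towards a testis.

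The EM-female libraries held between 9275513 and 13821205 reads in genes. Depth was lower at higher concentrations, with 13821205 and 12260662 reads at 50 μg/L, 12241741 and 12179750 at 100 μg/L and 9275513 and 10923489 at 200 μg/L, and its part in the slopes was not tested. All 6 had the markers of an ovary: the summed level of 29 oocyte genes lay between 11547 and 13403 CPM (read counts scaled to the size of the library), and the 22 testis genes summed to between 175 and 222 CPM, of which piwil1, a germ cell gene of both sexes, gave 99.2 to 136 CPM. Insl3 and amh, which mark the somatic cells of a testis, did not exceed 0.57 CPM in any EM-female. Not all members of the testis list were that low. GAPDHS had 9.19 to 47.8 CPM in the EM-females, and 429 to 598 CPM in the EM-males on their own scale.

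No gene passed the test for a concentration trend. Of 15650 genes with enough reads, 0 (0%) had an adjusted p under 0.05 by edgeR's quasi-likelihood test, and the smallest adjusted p was 0.497. The same model without adjustment gave 677 genes (4.33%) under 0.05, of which 373 (2.38%) were higher and 304 (1.94%) lower with concentration. The median slope was 0.00 and the middle 50% of slopes lay between −0.12 and 0.14 per doubling on the log2 scale. The second tool, DESeq2, called 69 genes higher and 41 lower, and 105 of its 110 genes had an unadjusted p under 0.05 in edgeR.

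The precision differed from gene to gene, with a median SE of 0.22 per doubling. For 5887 genes (37.6%) the 95% interval of the slope lay within 0.5 either side of 0, and for 10632 genes (67.9%) within 1. For the remaining genes the interval reached beyond 1, which is a doubling of expression for a doubling of EM, so a slope of that size was compatible with the data.

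The libraries as a whole did not separate by concentration. Over 9119 genes with a mean of at least 10 CPM, the SD of the log2 difference between fish of the same concentration was 0.689 to 0.799 (3 pairs). It was 0.747 to 0.815 for fish 1 step apart (8 pairs) and 0.7499 to 0.806 for fish 2 steps apart (4 pairs). The medians of the 3 classes were 0.777, 0.784 and 0.782, so fish of the same tank were nearly as far apart as fish from the lowest and the highest concentration.

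**Figure D1:**
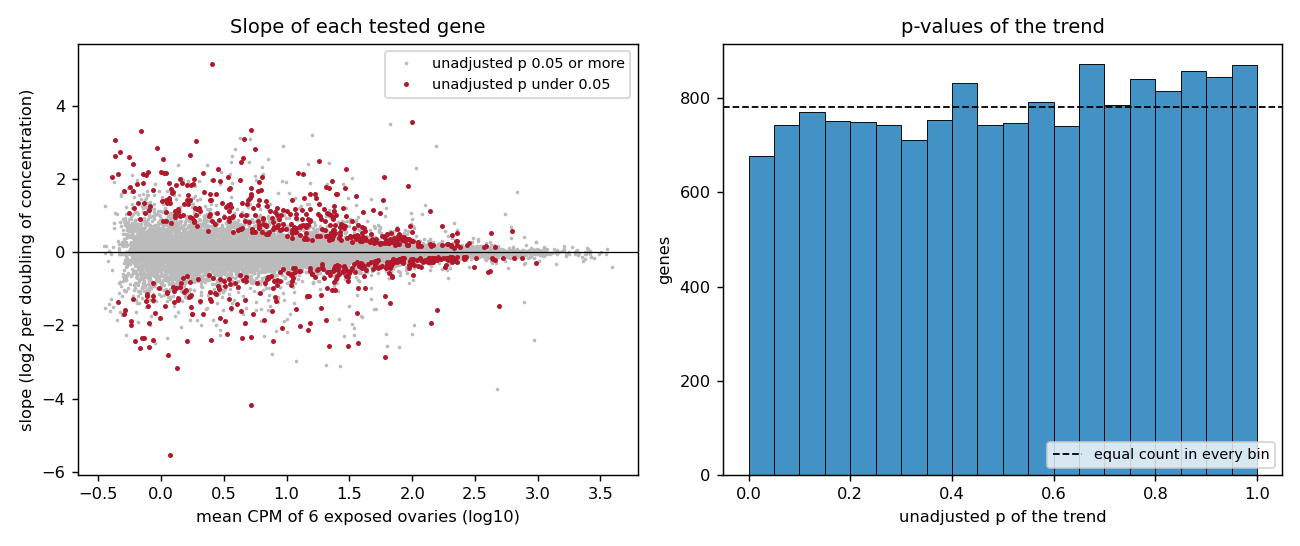
Left, slope of each of 15650 genes (log2 per doubling of EM) against its mean level in the 6 EM-females (log10 of CPM), with the 677 genes of unadjusted p under 0.05 in red. Right, the number of genes in each of 20 bins of the unadjusted p, where the lowest bin holds 677 genes and the dashed line marks an equal count in every bin.

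In 319 genes (2.04%) the 6 fish kept the strict order of concentration, so that neither fish of a concentration overlapped with the next. Random assignment of the fish to the concentrations gives such an order, up or down, with a probability of 0.0222. The share of 2.04% is no higher, so strict order alone does not set these genes apart from chance. Of the 319 genes, 158 (1.01%) were ordered upwards, with a median slope of 0.54. The other 161 (1.03%) were ordered downwards, with a median slope of −0.32. An unadjusted p under 0.05 was found in 192 of the 319. The genes named next are the 10 in each direction with the smallest p among the ordered genes that have a gene symbol (clone names such as those that begin with si: or zgc: were not counted as one). None of them passed the adjusted test in edgeR, and all of them passed it in DESeq2, with adjusted p between 4.93e-11 (mdm2) and 0.0498 (anxa5b).

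The leading gene in upward order was mdm2 (ENSDARG00000033443), which encodes a ubiquitin ligase. It had 16.9 and 13.5 CPM at 50 μg/L, 42.6 and 30.0 CPM at 100 μg/L and 68.0 and 72.6 CPM at 200 μg/L. Its slope was 1.103 ± 0.129 per doubling (log2, SE, edgeR unadjusted p = 6.35e-05, adjusted p = 0.497, DESeq2 adjusted p = 4.93e-11). The control females had 59.5 and 68.8 CPM, which lie with the fish at 200 μg/L and above every fish at 50 or 100 μg/L. The exact permutation test over the 90 assignments of the 6 fish (two-sided) gave p = 0.0222, the smallest that it can give. Strict order fixes this value in advance for every ordered gene, so it is no further support for mdm2.

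Vps51, a subunit of the complexes that tether vesicles returning to the Golgi, had 16.9 and 16.8 CPM at 50 μg/L, 31.8 and 24.5 CPM at 100 μg/L and 47.3 and 60.3 CPM at 200 μg/L (slope 0.84 ± 0.12). Its controls, with 38.6 and 26.6 CPM, fell among the fish at 100 μg/L and between 100 and 200 μg/L. HSPA4, a chaperone of the Hsp70 family, had 19.8 and 11.8 CPM at 50 μg/L, 23.4 and 22.9 CPM at 100 μg/L and 44.8 and 43.6 CPM at 200 μg/L (slope 0.74 ± 0.15), with controls of 19.4 and 19.7 CPM. Here the controls sat with the lowest concentration. Zcchc9, a zinc finger protein, had the smallest slope of the 10 (0.31 ± 0.06), with 78.6 and 85.4 CPM at 50 μg/L, 102 and 94.8 CPM at 100 μg/L and 126 and 125 CPM at 200 μg/L (controls 127 and 90.7 CPM).

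Other genes of the upward group were low at 50 μg/L. Znhit2, a zinc finger protein, had 0.21 and 0.34 CPM at 50 μg/L, 1.22 and 1.73 CPM at 100 μg/L and 9.05 and 4.46 CPM at 200 μg/L (slope 2.28 ± 0.31). DKK3, a secreted protein of the Dickkopf family, was at or under 3 reads in both fish at 50 μg/L, so its level at 200 μg/L, 7.22 and 15.6 CPM, was at least 49.1-fold higher than a floor of 3 reads per library. Its 2 controls differed widely, with 13.1 and 0.12 CPM. Thbs4b, an extracellular matrix glycoprotein, was named for the size of its slope (2.41 ± 0.52), not for its p. DESeq2 gave it no adjusted p, so it is not among the genes said above to have passed that test. It was at least 6.29-fold higher at 200 than at 50 μg/L against the same floor. At 200 μg/L it had 1.29 and 1.64 CPM, so it was low throughout.

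UTP6, a factor of ribosomal RNA processing, showed a step rather than a line. It had 3.71 and 3.43 CPM at 50 μg/L, 4.56 and 4.21 CPM at 100 μg/L and 55.5 and 106 CPM at 200 μg/L, and one control lay on each side of the step (8.25 and 47.9 CPM). Atad5b, related to a human protein that unloads the replication clamp, had the same shape with 2.36 and 1.59 CPM at 50 μg/L, 2.44 and 2.48 CPM at 100 μg/L and 24.8 and 47.5 CPM at 200 μg/L. Its controls, 2.75 and 25.7 CPM, split in the same way as those of UTP6. The zinc finger genes ZNF207 and znf1187 had slopes of 1.180 ± 0.210 and 1.195 ± 0.240, and control pairs of 7.15 and 18.3 CPM and of 2.53 and 11.0 CPM.

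In downward order, IDH3A, a subunit of the isocitrate dehydrogenase of the citric acid cycle, had the smallest p (0.000815 by edgeR, unadjusted). It had 238 and 221 CPM at 50 μg/L, 180 and 204 CPM at 100 μg/L and 148 and 134 CPM at 200 μg/L, a slope of −0.35 ± 0.06, and controls of 181 and 188 CPM that matched the fish at 100 μg/L. Bub1ba, a kinase of the spindle checkpoint, had 138 and 129 CPM at 50 μg/L, 123 and 103 CPM at 100 μg/L and 58.3 and 56.1 CPM at 200 μg/L (slope −0.61 ± 0.11). Its controls, 87.5 and 85.9 CPM, lay between the fish at 100 and 200 μg/L.

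Anxa5b, an annexin that binds phosphatidylserine, had 224 and 224 CPM at 50 μg/L, 164 and 220 CPM at 100 μg/L and 133 and 124 CPM at 200 μg/L, and its controls (117 and 143 CPM) lay with the highest concentration. RUFY2, a protein of endosomes, had 24.3 and 55.5 CPM at 50 μg/L, 12.2 and 11.0 CPM at 100 μg/L and 7.54 and 2.37 CPM at 200 μg/L (slope −1.51 ± 0.30). The calmodulin gene CALM2 had a slope of −1.02 ± 0.22 and the amylase gene amy2al1 one of −0.39 ± 0.08.

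The last of the 10 were GABRA6, a receptor subunit for the transmitter GABA (slope −0.89 ± 0.20), swsap1, which has a role in homologous recombination (−0.46 ± 0.10), atp5meb, a subunit of the ATP synthase (−1.62 ± 0.36), and acbd4, which binds acyl-CoA (−4.16 ± 0.91). The last of these rested on 1 fish, since acbd4 had 29.2 CPM in the first fish at 50 μg/L and at most 0.92 CPM in the other 5, and its slope without that fish was −1.55. Among ordered genes with a gene symbol, ttc4, a co-chaperone, and erap2, a peptidase that trims antigens in human cells, were with acbd4 the 3 of largest downward slope, at −2.02 ± 0.49 and −1.70 ± 0.39. Ttc4 had 25.8 and 29.1 CPM at 50 μg/L, 2.52 and 16.7 CPM at 100 μg/L and 0.75 and 2.46 CPM at 200 μg/L, and its controls (30.1 and 2.73 CPM) covered that whole range.

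**Figure D2:**
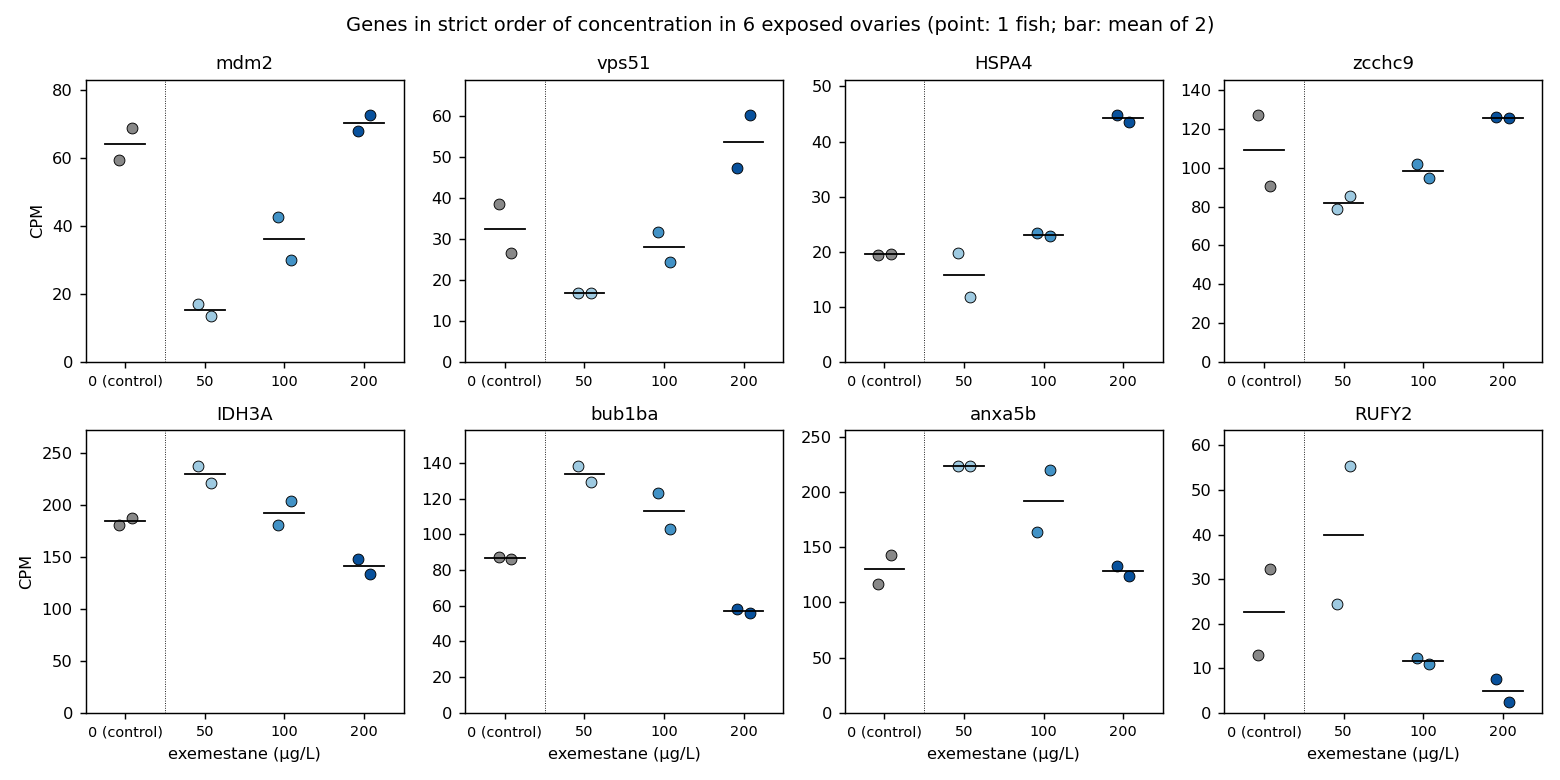
CPM of 8 genes in strict order of concentration against EM (μg/L), 1 point per ovary with a bar at the mean of 2 fish, and the control fish left of the dotted line. Mdm2, vps51, HSPA4 and zcchc9 were highest and IDH3A, bub1ba, anxa5b and RUFY2 lowest at 200 μg/L, while the controls of mdm2 (59.5 and 68.8 CPM) lay near the fish at 200 μg/L and those of HSPA4 (19.4 and 19.7 CPM) near the fish at 50 μg/L.

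For genes with a low p, the control mean was placed against the means at 50 and 200 μg/L. The first class held genes whose control mean lay at or beyond the mean of the fish at 50 μg/L, on the side away from 200 μg/L. This was so for 38 of the 373 genes with an unadjusted p under 0.05 that were higher with concentration and for 46 of the 304 that were lower, together 12.4% of 677, beside 33.7% of all tested genes. The control mean lay between the means at 50 and 200 μg/L in 484 of the 677 genes (71.5%), beside 28.0% of all tested genes, and at or beyond the mean at 200 μg/L in 109 genes (16.1%, beside 38.4%). Genes picked for a slope have their means at 50 and 200 μg/L farther apart than other genes. A control mean between them was therefore more likely in advance, and these shares are a description only. Of the ordered genes, 12 of 158 upward and 24 of 161 downward had the controls at or beyond 50 μg/L.

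The target of EM and the estrogen-dependent yolk genes gave no call. Cyp19a1a, the ovarian aromatase gene, had 8.22 and 0.67 CPM at 50 μg/L, 0.16 and 0.50 CPM at 100 μg/L and 15.2 and 1.46 CPM at 200 μg/L, with 0.55 and 0.47 CPM in the controls. The first fish at 50 and the first at 200 μg/L stood above the other 4, which had 2 to 16 reads and lay on both sides of the controls, and the slope of 0.45 ± 0.82 had an interval of −1.50 to 2.40 per doubling. All 8 vitellogenin genes were low in every EM-female, with a summed level of 2.64 to 14.2 CPM. Vtg3 had 0.64 and 0.25 CPM at 50 μg/L, 2.36 and 0.58 CPM at 100 μg/L and 2.05 and 1.64 CPM at 200 μg/L (slope 0.97 ± 0.47, edgeR unadjusted p = 0.0793). The 2 controls were 58.3 and 0.95 CPM for vtg3 and 310 and 2.73 CPM for vtg1, so 1 control fish held nearly all of the vitellogenin reads (summed level 480 CPM, against 10.7 CPM in the other).

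Of the 3 vitellogenins with enough reads for the test (vtg1, vtg3 and vtg5), all had positive slopes, none an unadjusted p under 0.05, and the median was 0.42. Vtg2, vtg4, vtg6 and vtg7 had at most 1.302 CPM in any EM-female and vtg8 at most 0.17 CPM. Vitellogenin is made mainly in the liver, and in whole gonads the reads of attached liver or blood and those of the ovary itself cannot be told apart. Liver genes had slopes of the same sign: 9 of 10 tested members of a list of 17 liver genes had positive slopes (7851 of all 15650 tested genes did), 4 had an unadjusted p under 0.05 (fabp10a, apoa2, tfa and fga; 4.33% of all tested genes did), and the median slope was 0.88, beside 0.00 over all tested genes. The list summed to 11.2 and 24.6 CPM at 50 μg/L, 32.1 and 33.5 CPM at 100 μg/L and 92.5 and 16.9 CPM at 200 μg/L, and to 291 and 10.1 CPM in the controls, so 1 fish at 200 μg/L and the same control fish that held vitellogenin stood apart. Whether more liver RNA reached these samples or more of it was made per cell cannot be told apart in whole tissue, and its part in the vitellogenin values was not tested.

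Without that fish at 200 μg/L, the slopes of apoa2, tfa and fga were 0.76, 0.45 and 0.32, in place of 2.15, 1.48 and 0.95. Fabp10a, the liver fatty acid binding protein, kept a slope of 1.52 (2.06 with all fish), with 0.00 and 0.75 CPM at 50 μg/L, 3.74 and 1.65 CPM at 100 μg/L and 12.1 and 2.09 CPM at 200 μg/L. Its levels at 50 μg/L were below those of the other 4 fish, and those at 100 and 200 μg/L overlapped.

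**Figure D3:**
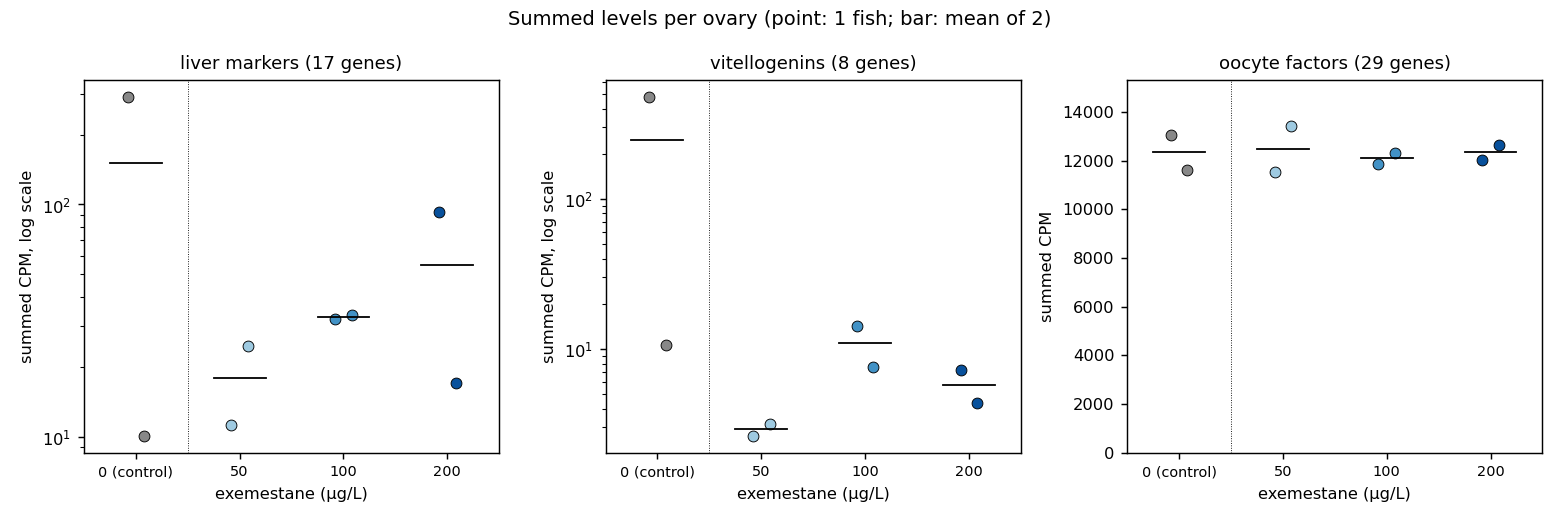
Summed CPM of 17 liver genes, 8 vitellogenins (both on a log axis) and 29 oocyte genes against EM (μg/L), 1 point per ovary and a bar at the mean of 2. The liver genes are highest in 1 control fish (291 CPM) and in 1 fish at 200 μg/L (92.5 CPM), the same control fish leads the vitellogenins (480 CPM), and the oocyte genes stay between 11547 and 13403 CPM in the EM-females.

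The genes that make and sense sex steroids showed no trend that passed the test. Of 17 tested steroid synthesis genes, 10 had positive and 7 negative slopes, 0 had an unadjusted p under 0.05, and the median slope was 0.05. The nearest was hsd17b8, a hydroxysteroid dehydrogenase, with 45.4 and 56.1 CPM at 50 μg/L, 35.6 and 45.3 CPM at 100 μg/L and 79.1 and 98.9 CPM at 200 μg/L (slope 0.41 ± 0.18, edgeR unadjusted p = 0.0550), and controls of 98.3 and 80.1 CPM in the range of 200 μg/L. The 2 members with the most reads, hsd17b12a and hsd17b10, had slopes of 0.07 ± 0.12 and 0.06 ± 0.06. Cyp11a1 starts steroid synthesis by cutting the side chain of cholesterol. Its levels differed widely between the fish at 50 μg/L (260 and 65.3 CPM) and between those at 200 μg/L (57.3 and 254 CPM). The fish at 100 μg/L were close to each other, with 48.3 and 58.9 CPM.

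Of 8 tested hormone receptors, none had an unadjusted p under 0.05 and the median slope was −0.08. PGRMC1, a membrane component that binds progesterone, had a slope of −0.21 ± 0.10 and esr2a, an estrogen receptor, one of 0.26 ± 0.25. Follicle cell genes gave 1 of 10 under 0.05, igf1rb, beside 4.33% of all tested genes. This receptor gene for insulin-like growth factor had 9.43 and 7.87 CPM at 50 μg/L, 31.9 and 9.25 CPM at 100 μg/L and 39.8 and 33.2 CPM at 200 μg/L. Its slope was 1.04 ± 0.28 (edgeR adjusted p = 1.00, DESeq2 adjusted p = 0.0300), and its controls (32.0 and 17.1 CPM) fell among the exposed fish. Gsdf, a growth factor of gonadal somatic cells, had a slope of 0.04 ± 0.35.

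Genes of the egg had narrow intervals. None of 28 tested oocyte genes and none of 18 zona pellucida genes had an unadjusted p under 0.05, the medians were 0.02 and −0.00, and 21 and 10 of them had an interval within 0.5 either side of 0. Buc, which organises the Balbiani body of the oocyte, had 1694 and 1982 CPM at 50 μg/L, 1597 and 1855 CPM at 100 μg/L and 1762 and 1681 CPM at 200 μg/L, with 1538 and 1577 CPM in the controls (slope −0.05 ± 0.06). The linker histone gene h1m and the egg coat genes zp3e and zp3b had slopes of 0.06 ± 0.09, 0.02 ± 0.07 and −0.01 ± 0.07.

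Genes of DNA replication and of the cell cycle gave a few members with a low p in both directions, against 4.33% of all tested genes with an unadjusted p under 0.05. Of 46 tested replication genes, 1 was higher (pole, the catalytic subunit of polymerase epsilon) and 2 were lower (pold1, that of polymerase delta, and orc2, of the origin recognition complex) at an unadjusted p under 0.05, and the median slope was −0.02. These 3 of 46 are a share near that of all genes. Pole had 54.8 and 54.5 CPM at 50 μg/L, 56.5 and 70.6 CPM at 100 μg/L and 73.9 and 83.1 CPM at 200 μg/L (slope 0.26 ± 0.08). Pold1 had 184 and 163 CPM at 50 μg/L, 134 and 163.0 CPM at 100 μg/L and 110 and 129 CPM at 200 μg/L (slope −0.27 ± 0.07). Both kept the order of concentration, in opposite directions, while orc2 (slope −0.37 ± 0.12) was highest at 50 μg/L and did not separate 100 from 200 μg/L.

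Among 34 cell cycle and oocyte maturation genes, plk1 and top2a were higher and kif11 lower at an unadjusted p under 0.05, with a median slope of 0.08. The mitotic motor kif11 had the best defined of these slopes (−0.20 ± 0.06), with 504 and 469 CPM at 50 μg/L, 456 and 471 CPM at 100 μg/L and 367 and 375 CPM at 200 μg/L. Only the fish at 200 μg/L stood apart from the other exposed fish. The slope of the mitotic kinase plk1 (0.90 ± 0.29) was 0.40 without the first fish at 200 μg/L. Rrm1, ccna1 and ccnb1, with the most reads, had slopes of 0.05 ± 0.10, 0.27 ± 0.14 and 0.00 ± 0.07.

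Apoptosis genes (24 tested, median slope −0.01) had mdm2 as their single member under 0.05. The counts in this and the next paragraph stand beside 4.33% of all tested genes with an unadjusted p under 0.05. Mcl1a and cycsb, the most abundant, had slopes of 0.01 ± 0.05 and 0.05 ± 0.10. Of 20 extracellular matrix genes, the collagen genes COL4A2 (−0.44 ± 0.16) and col5a1 (−1.27 ± 0.43) were under 0.05 and the median was −0.02. In the heat shock and ER stress list (29 tested, median −0.00), hsp70.2 had a slope of 1.35 ± 0.41 and the mitochondrial chaperone hspa9 one of −0.40 ± 0.14, and the slope of hsp70.2 was 0.72 without the first fish at 200 μg/L, where it had 14.0 CPM against at most 4.79 CPM in the other 5. Of 22 tested members of the drug metabolism list, only NAT10 was under 0.05 (0.18 ± 0.07), and the median was −0.02. NAT10 encodes an enzyme that acetylates RNA, so it does not stand for drug metabolism.

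The remaining lists held no member, or a single one, under 0.05. There was none among 30 lysosomal genes (median slope 0.01), 20 genes of cholesterol and lipid uptake (0.02), 22 clock genes (0.03), 32 genes of RNA decay and small RNA processing (−0.02) and 11 MHC class I genes (−0.19). In the RNA decay list 24 of 32 slopes were negative (7799 of all 15650 tested genes were), but 18 of the intervals lay within 0.5 either side of 0 and the steepest slope was −0.33. Among markers of other cells, there was none in 3 tested blood genes (median −0.61), 5 leukocyte genes (−0.05) and 4 muscle genes (−0.21), and 1 in 13 testis genes, the transcription factor gene DMRT1, at 0.50 to 3.28 CPM (slope 1.00 ± 0.39). In the EM-females the blood list summed to 2.64 to 9.05 CPM and the leukocyte list to 36.2 to 48.1 CPM. Most of the leukocyte sum came from rac2 (30.9 to 39.7 CPM). Of the 12 leukocyte genes, 3 had 0 reads in all 6 EM-females, lyz and mpeg1.1 among them.

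**Figure D4:**
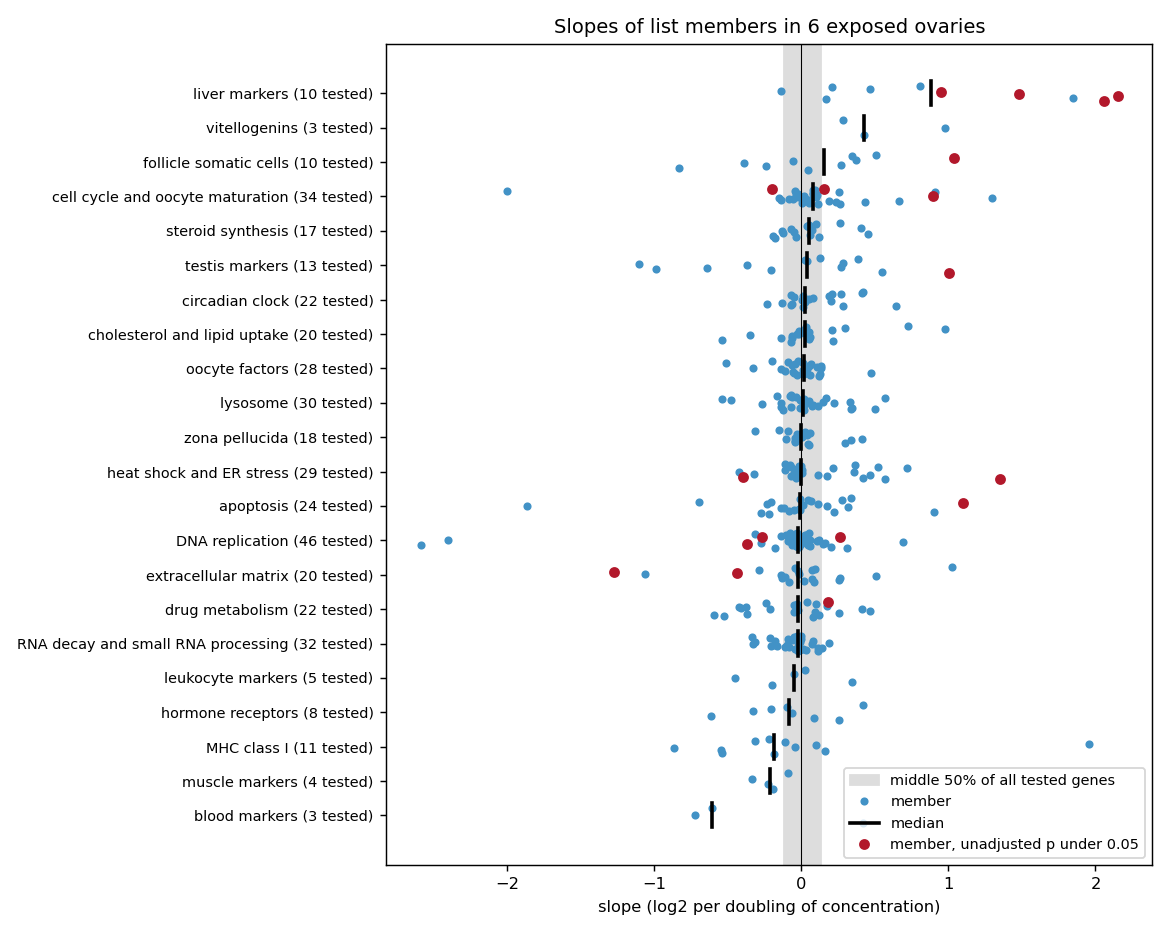
Slopes (log2 per doubling of EM) of the tested members of 22 gene lists in the 6 EM-females, with the median as a black bar, members of unadjusted p under 0.05 in red, and the middle 50% of all tested genes (−0.12 to 0.14) in grey. Liver genes have the highest median (0.88) and the 3 blood genes the lowest (−0.61), and most other medians lie in the grey band.

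Comparing the concentrations in pairs, in 1 fit of the 3 groups, gave few calls in edgeR and more in DESeq2. Between 50 and 100 μg/L 0 genes (0%) passed an adjusted p under 0.05 in edgeR, with 874 at an unadjusted p under 0.05 and 130 calls in DESeq2. Between 100 and 200 μg/L 3 genes (0.0192%) passed, and between 50 and 200 μg/L 2 genes (0.0128%), with 168 and 169 calls in DESeq2. All of the edgeR calls were lower at 200 μg/L, and these counts rested on single fish: they lay between 0 and 9 and between 0 and 11 when 1 fish was left out, and were both 0 without the second fish at 50 or the second at 200 μg/L. Both were also 0 with the replicate number as a block, and the count between 100 and 200 μg/L was 0 when only the 4 libraries of the pair were fitted.

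The genes called were rimkla (ENSDARG00000016830) and si:ch211-198a12.6 (ENSDARG00000074624) in both comparisons and tmem51a (ENSDARG00000068575) between 100 and 200 μg/L. Rimkla, which joins glutamate to N-acetylaspartate, had 132 and 95.6 CPM at 50 μg/L, 156 and 204 CPM at 100 μg/L and 3.66 and 4.55 CPM at 200 μg/L, and 217 and 103 CPM in the controls. It was 5.45 ± 0.28 lower on the log2 scale at 200 than at 100 μg/L (SE, edgeR adjusted p = 0.0274) and 4.79 ± 0.28 lower than at 50 μg/L (adjusted p = 0.0446). The unnamed gene si:ch211-198a12.6 had 78.8 and 136 CPM at 50 μg/L, 74.9 and 68.3 CPM at 100 μg/L and 1.72 and 1.18 CPM at 200 μg/L, and 112 and 94.5 CPM in the controls (strict downward order, slope −2.86 ± 0.90). Tmem51a, a transmembrane protein, had 36.7 to 76.2 CPM in the 4 fish at 50 and 100 μg/L, 1.40 and 1.18 CPM at 200 μg/L and 55.4 and 29.3 CPM in the controls. In each of the 3 the fish at 200 μg/L were far below all other females. The fish at 50 and 100 μg/L overlapped with the controls, except that both fish at 100 μg/L were below them for si:ch211-198a12.6.

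Wee2, an oocyte kinase that inhibits Cdk1, had the same step, with an adjusted p of 0.0910 against 100 μg/L in edgeR. It had 121 and 107 CPM at 50 μg/L, 114 and 264 CPM at 100 μg/L and 6.79 and 5.46 CPM at 200 μg/L. Its controls had 205 and 107 CPM. The linear slopes had wide errors, at −2.00 ± 1.16 for wee2 and −2.23 ± 1.25 for rimkla. Nasp, a histone chaperone, and orc1, of the origin recognition complex, were split within a tank. Nasp had 1269 and 1660 CPM at 50 μg/L, 46.2 and 2501 CPM at 100 μg/L and 52.4 and 50.4 CPM at 200 μg/L, with 1185 and 46.5 CPM in the controls. Orc1 had 140 and 106 CPM, 2.44 and 213 CPM, and 3.02 and 2.27 CPM at the same concentrations, with 80.9 and 1.66 CPM in the controls.

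The low level of nasp and orc1 was therefore found in 1 of 2 fish at 100 μg/L, in both at 200 μg/L and in 1 of 2 controls, and their slopes were −2.40 ± 1.27 and −2.58 ± 1.44 with edgeR unadjusted p of 0.107 and 0.121. The uncharacterised genes zgc:175135 and si:dkey-241l7.4 were split in the same fish, at 2.93 and 764 CPM and at 1.14 and 134 CPM at 100 μg/L, with slopes of −3.73 ± 1.53 and 3.549 ± 1.202. Mcm6l, a helicase subunit gene, had 443 and 56.5 CPM at 50 μg/L, 214 and 204 CPM at 100 μg/L and 287 and 195 CPM at 200 μg/L, and its slope was −0.03 ± 0.40.

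Whether 100 μg/L lay on the line between 50 and 200 μg/L was tested as a departure from it. No gene passed in edgeR (smallest adjusted p = 0.0886), 969 genes (6.19%) had an unadjusted p under 0.05, 529 above and 440 below the line, and DESeq2 called 150. The count in edgeR was 16 without the first fish at 100 μg/L.

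Below the line, ME2, a mitochondrial malic enzyme, had 15.7 and 23.8 CPM at 50 μg/L, 1.63 and 1.16 CPM at 100 μg/L and 30.6 and 31.4 CPM at 200 μg/L. OSTF1 had 15.6 and 30.3 CPM at 50 μg/L, 0.57 and 0.25 CPM at 100 μg/L and 28.0 and 30.8 CPM at 200 μg/L. In both genes the fish at 100 μg/L were below the other 4 exposed fish. Above the line, mcrip2 was at 0.57 and 1.68 CPM, 51.7 and 56.2 CPM, and 0.54 and 0.55 CPM, and its 2 controls lay at both levels (67.3 and 0.00 CPM). With rimkla, which had the smallest p, and tmem51a, it made up the 3 named genes of smallest p above the line.

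**Figure D5:**
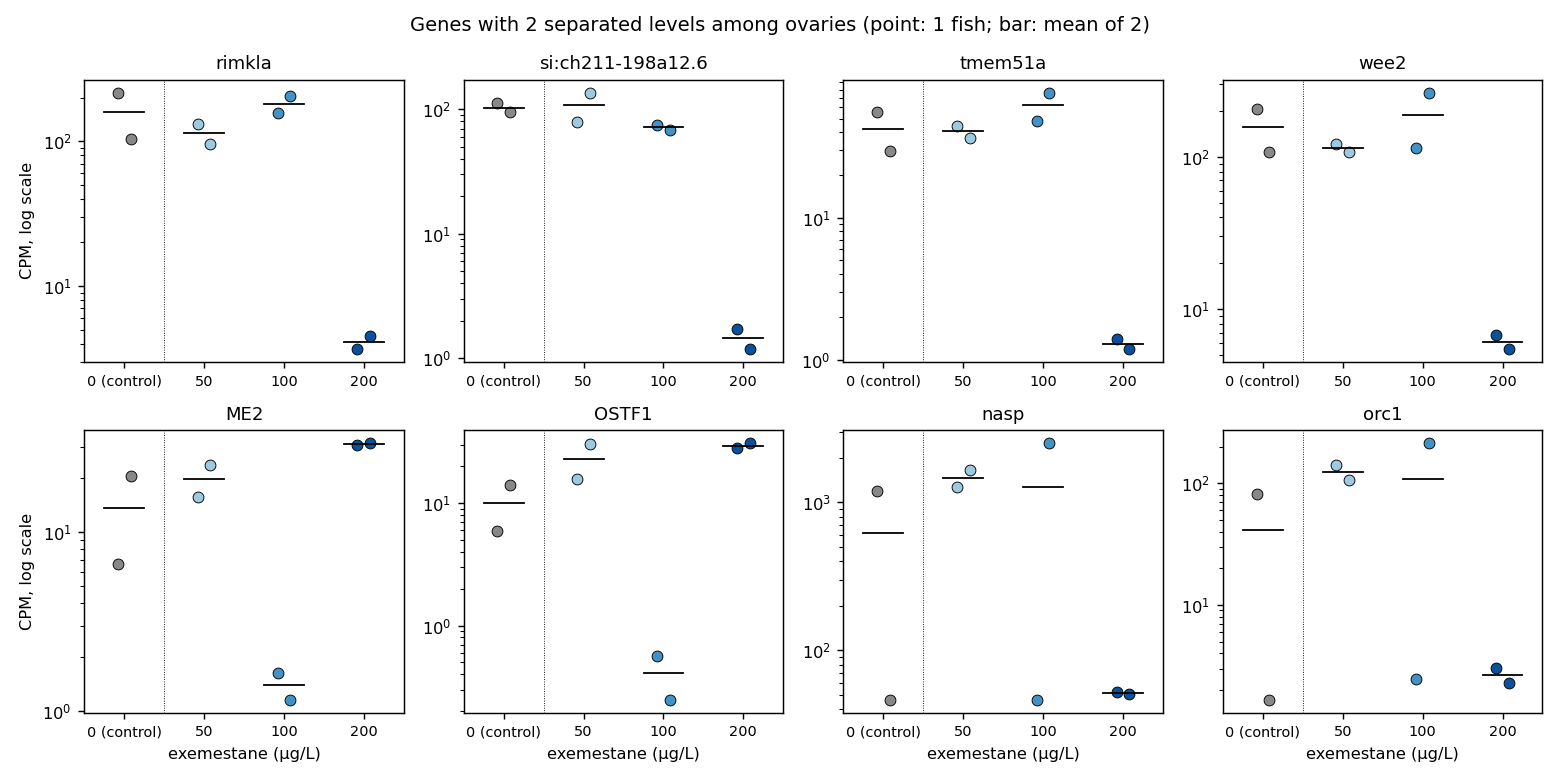
CPM (log axis) of 8 genes against EM (μg/L), 1 point per ovary and a bar at the mean of 2, controls left of the dotted line. Rimkla, si:ch211-198a12.6, tmem51a and wee2 are low in both fish at 200 μg/L only, ME2 and OSTF1 in both fish at 100 μg/L, and nasp and orc1 in 1 control, 1 fish at 100 and both fish at 200 μg/L.

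The slopes of females and males were compared in 1 fit of the 12 exposed fish. Of 21583 genes, 0 had an adjusted p under 0.05 in edgeR for the difference, 1111 (5.15%) had an unadjusted p under 0.05, and DESeq2 called 24. The males alone gave 0 calls among 18818 genes (858 at an unadjusted p under 0.05) with a larger median SE of 0.33. For mdm2 the slope was 1.103 ± 0.129 in females and −0.08 ± 0.19 in males (edgeR unadjusted p = 0.000452 for the difference, adjusted p = 0.912), and for vps51 it was 0.84 ± 0.12 in females and 1.202 ± 0.543 in males (unadjusted p = 0.480). None of the ordered genes described above was therefore shown to have a trend particular to ovaries.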

How the data were processed

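The authors prepared stranded poly(A) libraries, mapped the reads with HISAT2 2.0.5 to the zebrafish genome GRCz11, discarded duplicate reads (SAMtools 1.5) and assigned the rest to genes on the reverse strand (HTSeq 0.9.1). The deposited table of whole-number read counts (32520 genes) was used as it stands, after 5 tally rows were dropped. A second deposited table, the same counts divided by size factors, was not used here.

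The 6 EM-females were fitted with edgeR 4.0.16 (TMM, filterByExpr over the 3 concentrations, robust quasi-likelihood F-test, two-sided) on the log2 step of concentration (0, 1, 2), with Benjamini-Hochberg adjustment over all tested genes and a threshold of 0.05 (R 4.3.3, limma 3.58.1). Intervals are at 95%. CPM are shown on the TMM scale of the 6 females, with the controls on the same scale, and males on their own. CPM do not correct for gene length. DESeq2 1.42.0 and the permutation test (on log2 of CPM + 0.5) were alternatives, and each fish was left out in turn. Members, gene lists and tests were chosen with earlier results of these data known, and no list was tested as a set. Genes were named by the following rules. The first was an adjusted p under 0.05. Next were the 10 smallest p and 3 largest slopes per direction among ordered genes with a gene symbol (no clone name). List members with p under 0.05 or the most counts were named, as were genes called between concentrations. Wee2, zgc:175135 and si:dkey-241l7.4 were called between 50 and 200 μg/L only when the 4 libraries of that pair were fitted alone. That fit called 6 genes. Nasp, orc1 and mcm6l were taken from an earlier analysis of these data, whether or not that fit called them too. Cyp19a1a, the vitellogenins and the 3 smallest p per direction for the departure were also named. One gene that these rules name is not reported here. Hsd17b8, cyp11a1, fabp10a levels, opn6a, slc35e3, si:dkey-10p5.10 and the liver list sums were singled out after their values were seen. Symbols came from the study's tables and a gene name table (22875 of 32520 genes). The fit was tested on simulated data. Intervals of single libraries cover counting error only.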

Additional observations from a re-analysis of the deposited data

How the results depend on the processing

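The count of 0 trend calls in edgeR held with DESeq2 size factors, no filter beyond 1 read, the replicate number as a block (607 genes at an unadjusted p under 0.05), concentration in μg/L, no robust estimation, all 8 females in 1 fit, and each fish left out (0 in all 6). DESeq2 called 69 higher and 41 lower, also with its filtering level at 0.05, an alternative chosen after seeing the data. The pairwise counts moved most: between 50 and 100 μg/L 130 calls in DESeq2 and 0 to 1 with a fish left out; between 100 and 200 μg/L 168 in DESeq2, 0 with the replicate block, 0 with only the 4 libraries of the pair and 0 to 9 with a fish left out; between 50 and 200 μg/L 169 in DESeq2, 0 with the replicate block, 6 with only the 4 libraries and 0 to 11 with a fish left out. The highest counts, 9 and 11, were reached without the first fish at 100 μg/L, and both were 0 without the second fish at 50 or at 200 μg/L. The replicate numbers did not pair the fish across concentrations: the correlations of the deviations were −0.02, 0.01 and −0.01. For the departure from the line DESeq2 called 150, no filter gave 9 and leaving out a fish 0 to 16. For the difference between the sexes DESeq2 called 24, and every other setting, including the replicate block and each of 12 fish left out, gave 0. Why the tools differ was not tested. Of 96 named genes with a slope, 42 had an unadjusted p under 0.05, and none of these 42 reversed its sign over 14 alternatives. How far the slopes of these 42 shifted was not counted. Those of acbd4, apoa2, tfa, fga, plk1 and hsp70.2 given above shifted beyond their SE when a fish was left out. The next counts are of cases, each 1 gene in 1 alternative, so a gene can be counted more than once. Among the other named genes, the slope moved beyond its SE in 34 cases with a fish left out. Changes of sign were not counted. With the replicate block, gsdf went from 0.04 to −0.04 and mcm6l from −0.03 to 0.16. Elsewhere the slope was called in 50 cases, all by DESeq2, which was counted at both of its filtering levels. The remaining cases, 542 with a fish left out and 718 elsewhere, were labelled the same. For the 42 genes that label means only that the slope kept its sign and was not called, however far it shifted. With 2 fish per concentration and 1 tank each, depth falling with concentration, and many slopes known only to about 0.22 per doubling, small trends could not be detected.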

Other observations

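The single smallest p of the trend belonged to opn6a, an opsin gene, outside the naming rule because fish at 100 and 200 μg/L tied at 0 reads. It had 48 and 42 reads at 50 μg/L, 0 and 1 at 100 μg/L, 0 and 0 at 200 μg/L, and 0 and 1 in the control females (edgeR unadjusted p = 4.27e-05, adjusted p = 0.497). It was also the gene with the smallest p for a difference between the sexes (adjusted p = 0.0679), since the 6 EM-males had 5.24 to 12.4 CPM at all concentrations. The reads at 50 μg/L thus stood apart from 6 other females, controls included.

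Genes with a low p often lay side by side. Of 11742 tested genes placed on chromosomes by their symbol in RefSeq's GRCz12tu assembly (used for gene order only), 512 had an unadjusted p under 0.05 for the trend, and 106 of these (20.7%) had a neighbouring tested gene that was also under 0.05 in the same direction. Over all placed genes, 4.93% had such a neighbour. There were 50 runs of neighbours, 45 of them pairs, and the longest held 4 genes. That run, on chromosome 6, consisted of si:dkey-10p5.10, UTP6, atad5b and TEFM, of which the first had 1.71 and 1.59 CPM at 50 μg/L, 3.66 and 2.73 CPM at 100 μg/L, 19.6 and 43.9 CPM at 200 μg/L, and 5.94 and 19.9 CPM in the controls. RUFY2 lay in a run of 3 on chromosome 13 with dna2 and hnrnph3, all lower with concentration. Next to mdm2 on chromosome 4 lay slc35e3, a member of a transporter family, with 3.71 and 3.43 CPM at 50 μg/L, 20.1 and 19.5 CPM at 100 μg/L, 32.6 and 24.1 CPM at 200 μg/L, and 27.6 and 29.9 CPM in the controls, the same shape as mdm2. Znhit2 and vps51 on chromosome 10, and nasp and orc1 on chromosome 6, had 1 placed tested gene between them. The neighbour counts were made after the values had been seen, and no cause of the shared direction was tested.

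Genes with 2 separated levels among the 6 EM-females were counted by a definition chosen after seeing the data: a gap of at least 3 on the log2 scale, a spread of at most 1.5 within each level, 2 to 4 fish in each level and at least 5 CPM in the highest fish. There were 109 (0.696% of tested genes). Both fish of every concentration were on the same level in 15 of them, so in the others at least 1 pair of fish from 1 tank was split. A gene with 3 fish in each level must split a pair by definition, so these counts are a description only. An unadjusted p under 0.05 for the trend was found in 9 (8.26%, beside 4.33% of all tested genes) and for the departure from the line in 27 of the 109, beside 6.19% of all tested genes. The 2 control fish were split between the levels in 50 of the 109, both high in 41 and both low in 18. Low at 200 μg/L in both fish and high in the other 4 were wee2, rimkla, tmem51a, si:ch211-198a12.6, OCA2 and prdm2a, and the reverse held for UTP6 and atad5b.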
